A study of Mus musculus with 6 samples.

Results

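The 9 genes described here encode receptors through which immune cells sense fatty acids, ketone bodies and products of gut microbes, together with target genes of one of them. They are the cell-surface receptors Hcar2, Gpr84 and Ffar2, the aryl hydrocarbon receptor Ahr with its target genes Tiparp and Cyp1b1, and the nuclear receptors Ppard, Pparg and Rxra. The genes were chosen by name, and 9 of 9 were found among the 19848 genes of the deposited RNA table. The study enriched immune cells from perfused brains of female C57BL/6 mice on a Percoll gradient and read RNA and antibody tags from the same single cells (CITE-seq). Control mice of both ages were given vehicle and kept their gut microbiota, and antibiotic mice of both ages had it depleted. Young mice were 12 weeks old and aged mice 72 weeks old. Each of the 4 combinations of age and treatment held 6 mice, 24 in all, collapsed into 3 pools per group, and the pool is the replicate throughout. Young and aged pools ran in separate wells of the droplet instrument, so age and well cannot be told apart, and hashtags 1 to 3 always marked control and 4 to 6 always antibiotic pools, so hashtag and treatment cannot be told apart either.

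HCAR2 is a Gi-coupled receptor for the ketone body beta-hydroxybutyrate, butyrate and niacin. GPR84 answers medium-chain fatty acids and is induced in activated myeloid cells, and FFAR2 binds the short-chain fatty acids that gut bacteria make from fibre. AHR is a ligand-activated transcription factor that binds dietary and microbial indoles and tryptophan metabolites. With its partner ARNT it switches on Cyp1b1, a cytochrome P450, and Tiparp, an ADP-ribosyltransferase that restrains AHR. PPAR-delta and PPAR-gamma are fatty acid-activated transcription factors that bind DNA as partners of RXR-alpha.

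The table held 13052 cells, 3263 in each group, assigned by the authors to 10 types. Pools held 760 to 1590 cells and 5745242 to 13742781 raw UMIs, and the median raw UMI total of a microglial cell was 6669 to 7154.5 in the 4 groups. The type names matched the markers below. The authors may have defined the types on these RNA values, so the match is a description and no independent check. Tmem119 averaged 8.09 in microglia and Mrc1 6.19 in the type called BAM, named for border-associated macrophages. Retnlg averaged 143 in the type called Ly6C+Ly6G+, Cd79a 12.3 in B cells, Cd3e 3.44 in CD8+ T cells and Ly6c2 9.70 in the type called Ly6CHigh. Tmem119 was above 0 in 100% of microglia and Mrc1 in 100% of BAM. The innate lymphoid cells, called ILCs, carried both Gata3 (43.3% of cells) and Klrb1c (48.5%). Both wells shared 59 cell barcodes. All expression values are the authors' corrected UMI values, averaged per pool within a type, and levels by type are given as mean ± SD over pools with at least 10 cells.

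Gpr84 was a microglial gene in these data, Hcar2 was highest in Ly6C+Ly6G+ cells, the type with the neutrophil marker Retnlg, and Ffar2 was nearly absent from both resident macrophage types. Gpr84 averaged 1.72 ± 0.55 (SD, n = 12 pools) in microglia, where 48.5% of cells had a value above 0, and microglia held 97.1% of its summed value. BAM came next at 0.29 ± 0.20 (SD, n = 12), and the microglial mean minus its SD stood above the BAM mean plus its SD. Among the lymphoid types with pools of at least 10 cells, a Gpr84 value above 0 was found in 1.40% of CD4+ cells to 5.54% of B cells. Whether these values are background was not tested. Hcar2 averaged 1.14 ± 0.51 (SD, n = 9) in Ly6C+Ly6G+ cells, with 43.5% of cells above 0. BAM followed at 0.19 ± 0.13 (SD, n = 12), microglia at 0.16 ± 0.13 (SD, n = 12), Ly6CHigh cells at 0.14 ± 0.13 (SD, n = 11) and Ly6CLow cells at 0.10 ± 0.07 (SD, n = 12), and these neighbours did not differ beyond their spread. The lymphoid types averaged 0.03 or less. Because microglia were 9403 of the cells, they still held 70.3% of the summed Hcar2 value.

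Ffar2 averaged 0.17 ± 0.09 (SD, n = 9) in Ly6C+Ly6G+ cells and 0.11 ± 0.13 (SD, n = 11) in ILCs, which overlapped. It was above 0 in 12.8% of Ly6C+Ly6G+ cells and 9.70% of ILCs. Only 8 of 9403 microglia had a value above 0, a share of 0.085% (95% Wilson interval 0.043% to 0.168%). None of 506 BAM did, which allows a share of up to 0.593% by counting error alone. The summed value of Ffar2 over all 13052 cells was 193, so it was measured thinly everywhere.

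**Figure D1:**
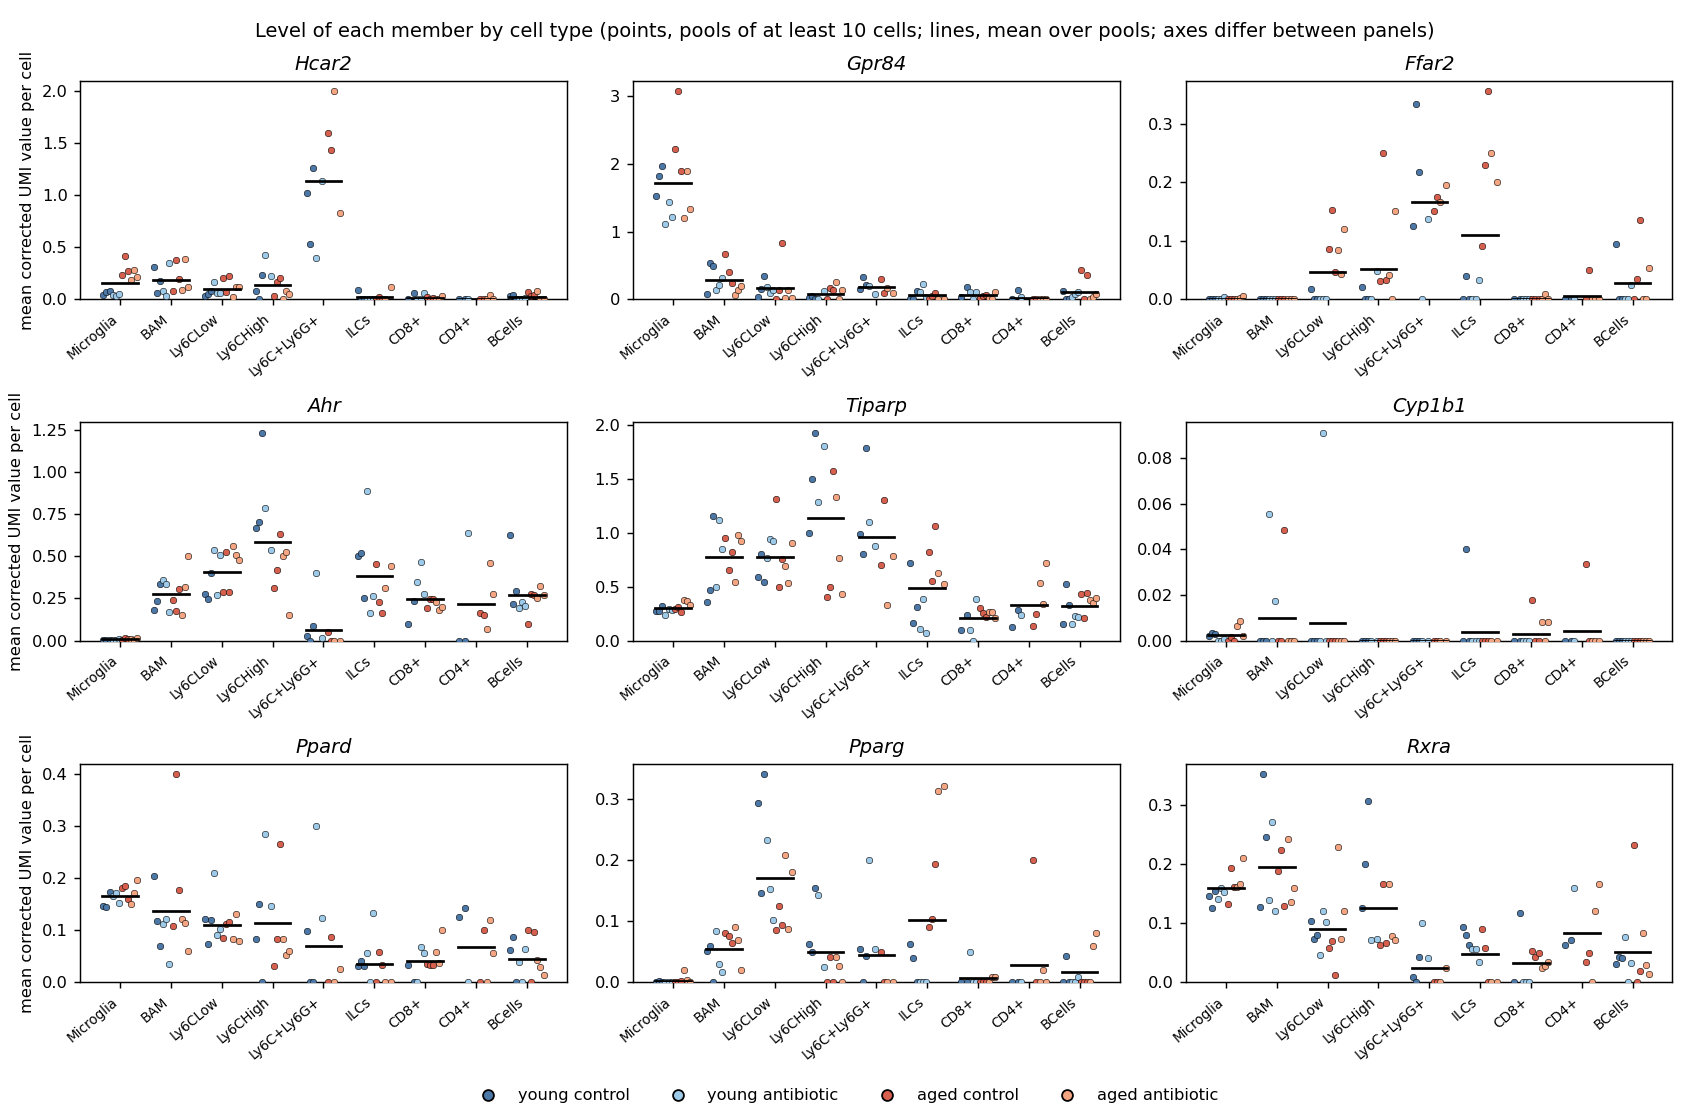
Mean corrected UMI value per cell (y axis, a separate scale in each panel) of each of the 9 genes in the 9 types that had pools of at least 10 cells (x axis). Points are pools coloured by group and lines are means over pools. Gpr84 is high in microglia (1.72), Hcar2 in Ly6C+Ly6G+ cells (1.14), and Ahr is near 0 in microglia (0.0084).

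Ahr and its target Tiparp were found in most immune types, but Ahr was nearly undetected in microglia and low in Ly6C+Ly6G+ cells. Ahr averaged 0.59 ± 0.28 (SD, n = 11) in Ly6CHigh cells, 0.41 ± 0.13 (SD, n = 12) in Ly6CLow cells and 0.38 ± 0.21 (SD, n = 11) in ILCs. BAM (0.28), B cells (0.27), CD8+ cells (0.25) and CD4+ cells (0.22) followed, each overlapping the next. Ly6CHigh pools ran from 0.152 to 1.23 for Ahr and from 0.406 to 1.92 for Tiparp. Median depth in Ly6CHigh cells differed widely between groups, as given below, which limits the place of that type in both orders. Ahr was low in Ly6C+Ly6G+ cells as well, at 0.064 ± 0.129 (SD, n = 9), with 2.56% of cells above 0. Microglia stood last at 0.0084 ± 0.0050 (SD, n = 12), with 60 of 9403 cells above 0 (0.64%), against 19.96% of BAM, whose median depth was 7157 to 8059 raw UMIs in the 4 groups. The highest microglial pool (0.018) lay below the lowest BAM pool (0.152). Tiparp ran from 1.14 ± 0.55 (SD, n = 11) in Ly6CHigh cells through 0.96 in Ly6C+Ly6G+ cells and 0.78 in BAM to 0.30 ± 0.04 (SD, n = 12) in microglia and 0.21 ± 0.11 (SD, n = 11) in CD8+ cells. It was therefore readily seen in microglia, in 20.6% of cells, where Ahr was not. Cyp1b1 averaged 0.010 or less in every type and was above 0 in 17 of 9403 microglia.

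The sequence just upstream of both AHR targets was examined for GCGTG, the core of the AHR-ARNT recognition element. The 250 bases before the RefSeq start of each gene (build GRCm38.p6, the assembly of mm10) are shown because they hold 1 match each, in capitals, on the strand opposite to the gene, so that it reads as CACGC.
Tiparp (chr3:65528197-65528446, plus strand): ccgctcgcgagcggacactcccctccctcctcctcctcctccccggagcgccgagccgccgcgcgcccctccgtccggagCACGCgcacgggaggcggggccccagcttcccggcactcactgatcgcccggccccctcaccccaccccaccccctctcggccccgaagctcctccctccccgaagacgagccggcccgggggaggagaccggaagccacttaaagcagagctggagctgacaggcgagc
Cyp1b1 (chr17:79715062-79715311, minus strand): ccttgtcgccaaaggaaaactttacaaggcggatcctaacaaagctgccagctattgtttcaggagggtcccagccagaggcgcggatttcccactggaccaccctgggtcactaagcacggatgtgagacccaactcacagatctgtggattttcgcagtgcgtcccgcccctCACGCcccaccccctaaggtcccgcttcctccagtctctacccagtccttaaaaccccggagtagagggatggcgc
The Tiparp match begins 170 bases and the Cyp1b1 match 76 bases before the start. GCGTG occurs on either strand in 28.2% of the 32851 RefSeq windows of the same length, so a match is a common event and describes the letters only. It also occurs in windows of genes here that are not given as AHR targets, with 1 match for Ppard, 1 in 1 of the 4 windows of Ffar2 and 2 in 1 of the 3 windows of Pparg. AGGTCA, the hexamer that nuclear receptors bind, was on neither strand of the Tiparp and Cyp1b1 windows and occurs in 14.02% of all windows. It was found in windows of Gpr84, Ffar2, Pparg and Rxra.

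All 3 nuclear receptors were above 0 in some cells of each of the 9 types. Ppard was highest in microglia at 0.166 ± 0.016 (SD, n = 12), with BAM (0.14), Ly6CHigh (0.11) and Ly6CLow cells (0.11) within its neighbours' spread. Rxra averaged 0.195 ± 0.073 (SD, n = 12) in BAM and 0.159 ± 0.024 (SD, n = 12) in microglia, which overlapped. Pparg averaged 0.17 ± 0.08 (SD, n = 12) in Ly6CLow cells and 0.10 ± 0.12 (SD, n = 11) in ILCs. BAM (0.053), Ly6CHigh (0.049), Ly6C+Ly6G+ (0.045), CD4+ (0.028) and B cells (0.016) followed, each overlapping the next. Pparg was above 0 in 12.3% of Ly6CLow cells, 8.79% of ILCs, 4.15% of BAM, 3.69% of Ly6C+Ly6G+ cells and 8 of 9403 microglia (0.085%).

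Comparisons between groups were made in microglia first, where limma was fitted to 8759 genes with a mean of at least 0.05 on the scale log2(pool mean + 0.05). That scale understates the change of low genes. Hcar2, Gpr84, Tiparp, Ppard and Rxra passed the filter, and Ffar2, Ahr, Cyp1b1 and Pparg did not, so nothing is said here about their response in microglia. A gene was called at a Benjamini-Hochberg adjusted p under 0.05 within a contrast. The share of all genes whose pools do not overlap is not given here. A lack of overlap between pools is therefore a description and no support for a difference. Whether the spread between pools is biological or technical is only partly known, since each pool mixes mice.

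Hcar2 (chr5:123863570-123865516, RefSeq GRCm38.p6) was several times higher in aged than in young microglia, with or without antibiotics. Its pool means were 0.041, 0.066 and 0.082 in young control and 0.237, 0.418 and 0.270 in aged control. They were 0.045, 0.035 and 0.052 in young antibiotic and 0.187, 0.277 and 0.217 in aged antibiotic. Every aged pool lay above every young pool. The rise was 1.65 (SE 0.16, limma adjusted p = 5.28e-06) in controls and 1.55 (SE 0.16, limma adjusted p = 9.23e-06) in antibiotic mice on that log2 scale. The plain ratios of the group means were 4.91 and 5.15. The young control mean (0.063) lay above the filter of 0.05 and the young antibiotic mean (0.044) below it. The age contrasts called 2.66% of all genes in controls and 6.15% in antibiotic mice, beside 1 and 2 of the 5 members tested.

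The Hcar2 rise lay mainly in how many microglia had a value. Hcar2 was above 0 in 3.42% of young control, 2.57% of young antibiotic, 12.9% of aged control and 11.9% of aged antibiotic microglia, at median depths of 6669 to 7154.5 raw UMIs. Among microglia above 0, the mean value was 1.84, 1.77, 2.35 and 2.00 in the same order. Of CD8+ T cells, a type with low Hcar2, 1.89% in young control and 1.11% in aged control mice were above 0, at median depths of 7272 and 6802 raw UMIs. B cells were above 0 in 2.53% and 3.604%, at 4585 and 6665 raw UMIs. These shares rest on few cells, since over all groups only 9 of 728 CD8+ cells and 9 of 487 B cells were above 0. In BAM the shares were 12.4% in young control and 15.1% in aged control. No member was called in BAM, where the 6 contrasts called 0 to 11 of 8942 genes. Hcar2 means, none called, were also higher in aged controls in Ly6CLow (0.163 against 0.054), Ly6CHigh (0.133 against 0.105) and Ly6C+Ly6G+ cells (1.52 against 0.94). In antibiotic mice the mean was higher with age in Ly6C+Ly6G+ cells (1.41 against 0.77). It was lower in Ly6CLow (0.086 against 0.095) and Ly6CHigh cells (0.043 against 0.324).

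RNA of other cells in the microglial pools moved with age as well. Summed over 7 neutrophil markers, the level per microglial cell was 2.40 to 6.73 in young control, 2.48 to 21.4 in young antibiotic, 0.668 to 0.785 in aged control and 1.14 to 3.10 in aged antibiotic pools. All 7 markers were lower in aged than in young microglia in both arms, whereas Hcar2, which is highest in Ly6C+Ly6G+ cells, was higher. The 5 B-cell markers summed to 0.371 to 0.464 in young control and 1.05 to 1.28 in aged control pools, of which Igkc made most (0.108 against 0.923), and 2 of 5 were higher with age; none of the 7 or the 5 was at 0. Their part in the Hcar2 result was not tested.

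**Figure D2:**
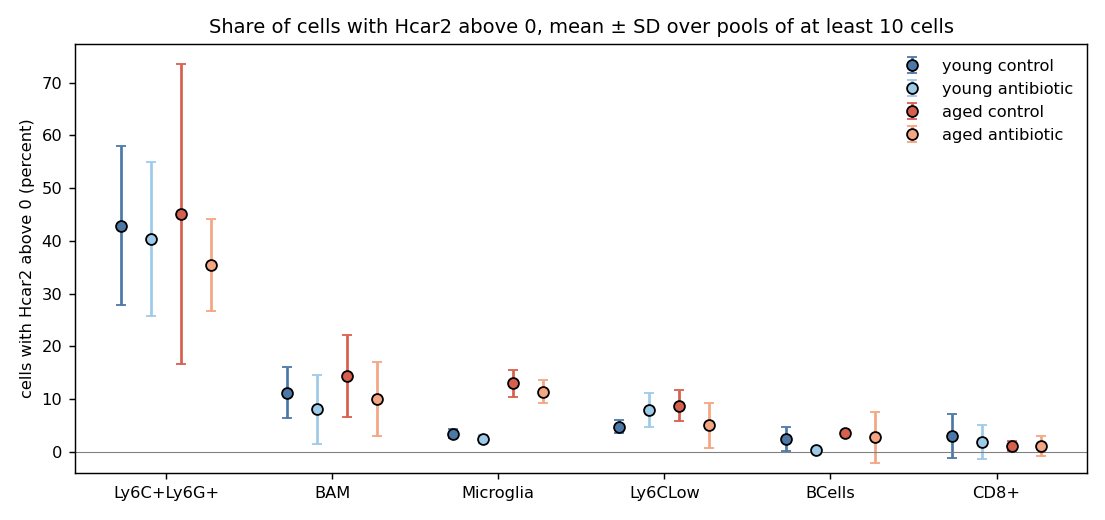
Percentage of cells with an Hcar2 value above 0 (y axis) in 6 types (x axis). Points are means and bars SDs over pools of at least 10 cells, coloured by group. In microglia both aged means (13.01% and 11.4%) stand above both young means (3.45% and 2.48%) by more than the SDs.

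Hcar2 was lower with antibiotics at both ages, but not beyond the spread between pools. The log2 difference was -0.35 (SE 0.16, limma adjusted p = 0.25) in aged and -0.25 (SE 0.16, limma adjusted p = 0.63) in young mice. The pools overlapped in both.

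Gpr84 (chr15:103308233-103310670) was lower in microglia of antibiotic-treated mice. Its pool means were 2.22, 3.07 and 1.89 in aged control and 1.202, 1.89 and 1.33 in aged antibiotic. In young mice they were 1.53, 1.81 and 1.96 in control and 1.11, 1.44 and 1.22 in antibiotic pools. The groups did not overlap at either age, although in aged mice the lowest control and the highest antibiotic pool both stood at 1.89 after rounding. In aged mice the log2 change was -0.68 (SE 0.15, limma adjusted p = 0.022), a ratio of means of 0.616. In young mice it was -0.48 (SE 0.15, limma adjusted p = 0.26), a ratio of 0.711, which did not pass. Averaged over both ages the change was -0.58 (SE 0.11, limma adjusted p = 0.0045).

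Gpr84 was 1 of 5 members called in aged mice, where 3.23% of all genes were called, and 1 of 5 in the average over ages, where 5.4% were. No member was called in young mice (0.137% of all genes called), and Gpr84 alone had an unadjusted p under 0.05 there. The change in aged mice did not differ detectably from that in young mice (difference -0.20, SE 0.22, limma adjusted p = 0.93). For that difference 0.0% of all genes were called by limma, and 579 had an unadjusted p under 0.05. The call in aged mice was lost without aged control 2 (-0.49, adjusted p = 0.12), aged antibiotic 1 (-0.55, adjusted p = 0.080) or aged antibiotic 3 (-0.62, adjusted p = 0.068). The call for both ages held when each of the 12 pools was left out (adjusted p 0.0010 to 0.015) and was lost only without the filter on low means (adjusted p = 0.065).

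Both the share of microglia with Gpr84 and the level in those cells were lower with antibiotics. Cells at 0 made up 50.7% of young control and 58.8% of young antibiotic microglia, and 44.9% of aged control and 50.8% of aged antibiotic microglia. Cells with a value of 6 or more made up 11.5% of aged control and 7.17% of aged antibiotic microglia. The authors' clusters split microglia by depth, with 8041 cells in cluster 0 (median 7220 raw UMIs) and 1204 in cluster 1 (median 1452). Cluster 1 held 14.5% of aged control and 17.1% of aged antibiotic microglia and had a Gpr84 mean of 0.507 against 1.93 in cluster 0. Within cluster 0 Gpr84 was 2.70 ± 0.71 (SD, n = 3) in aged control and 1.71 ± 0.42 (SD, n = 3) in aged antibiotic pools, where aged control 3 (2.09) lay below aged antibiotic 2 (2.19). Among cells of at least 2000 raw UMIs the change in aged mice was -0.65 (limma adjusted p = 0.021).

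All 7 neutrophil markers were higher in antibiotic than in control microglia at both ages, and so were all 5 monocyte markers, with a summed monocyte level of 0.140 to 0.257 in aged control and 0.163 to 0.655 in aged antibiotic pools. Both cell types had less Gpr84 than microglia (0.18 in Ly6C+Ly6G+ and 0.08 in Ly6CHigh cells). The part of these cells in the Gpr84 result was not tested. Of the 6 microglial markers, 4 were lower and 2 higher with antibiotics in aged microglia, and 3 were lower and 3 higher in young. P2ry12 ran from 9.77 to 10.75 in aged control and from 8.26 to 9.43 in aged antibiotic pools. Gpr34 ran from 9.21 to 9.90 and from 6.26 to 7.98 in the same groups. Whether Gpr84 moved with these markers was not tested.

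Tiparp (chr3:65528447-65555518) was highest in aged antibiotic microglia. Its pool means were 0.378, 0.371 and 0.326 in aged antibiotic, against 0.236, 0.296 and 0.282 in young antibiotic, 0.297, 0.315 and 0.269 in aged control and 0.273, 0.272 and 0.317 in young control. The aged antibiotic pools lay above all 9 others. Against young antibiotic the log2 change was 0.35 (SE 0.09, limma adjusted p = 0.022), a ratio of means of 1.32. That call was lost without young antibiotic 1 (0.27, adjusted p = 0.11), aged antibiotic 1 (0.31, adjusted p = 0.078) or aged antibiotic 2 (0.33, adjusted p = 0.093). Against aged control the change of 0.25 (SE 0.09, limma adjusted p = 0.13) did not pass. In controls the age difference was 0.03 (SE 0.09, limma adjusted p = 0.94), and the direction of that value turned when only cells of 4000 to 10000 raw UMIs were used. The difference between the antibiotic effects at both ages was 0.32 (SE 0.12, limma adjusted p = 0.64).

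Ppard and Rxra were not called in any comparison. Ppard pools ran from 0.144 to 0.196 and Rxra pools from 0.126 to 0.211 across all 12 pools. Their log2 changes lay between -0.02 and 0.14 for Ppard (SE 0.09) and between 0.07 and 0.19 for Rxra (SE 0.11) in the comparisons of single groups. The lowest limma adjusted p was 0.36, for Rxra between aged and young antibiotic microglia. The aged pools there were 0.162, 0.166 and 0.211 and the young pools 0.140, 0.160 and 0.153. The absence of a call does not show that the levels were equal.

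**Figure D3:**
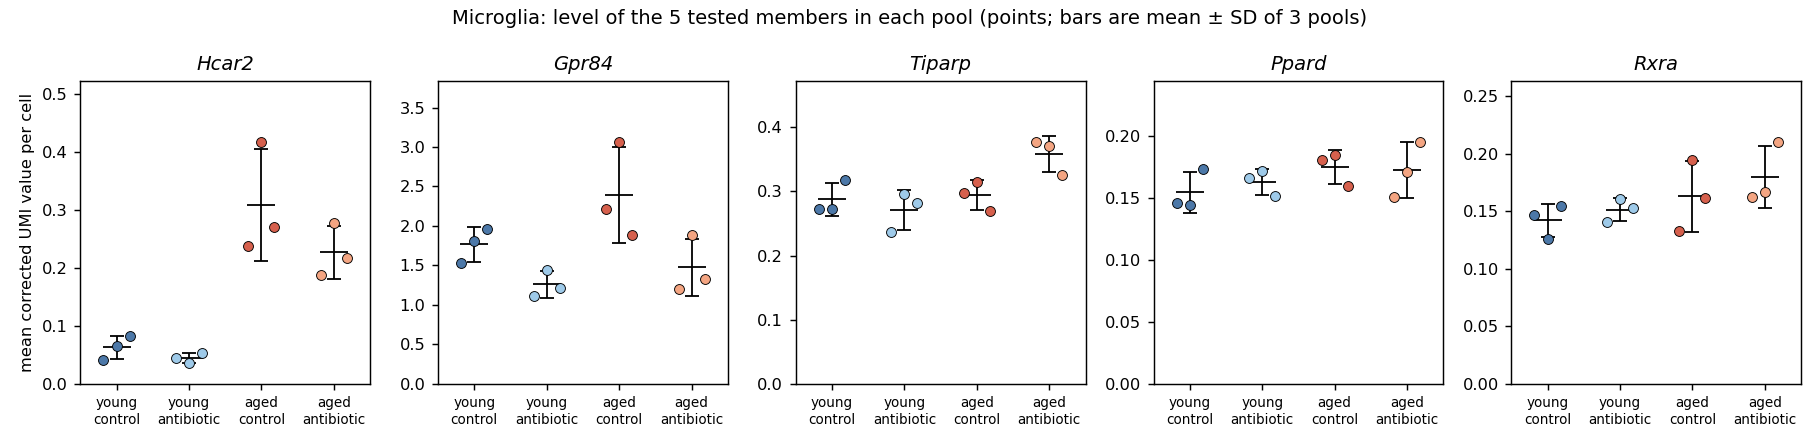
Mean corrected UMI value per microglial cell (y axis, a separate scale in each panel) of the 5 members tested, by group (x axis). Points are pools and bars are mean ± SD of 3 pools. Hcar2 separates aged from young pools, Gpr84 separates control from antibiotic pools only within each age, and the aged antibiotic pools have the highest Tiparp values.

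**Figure D4:**
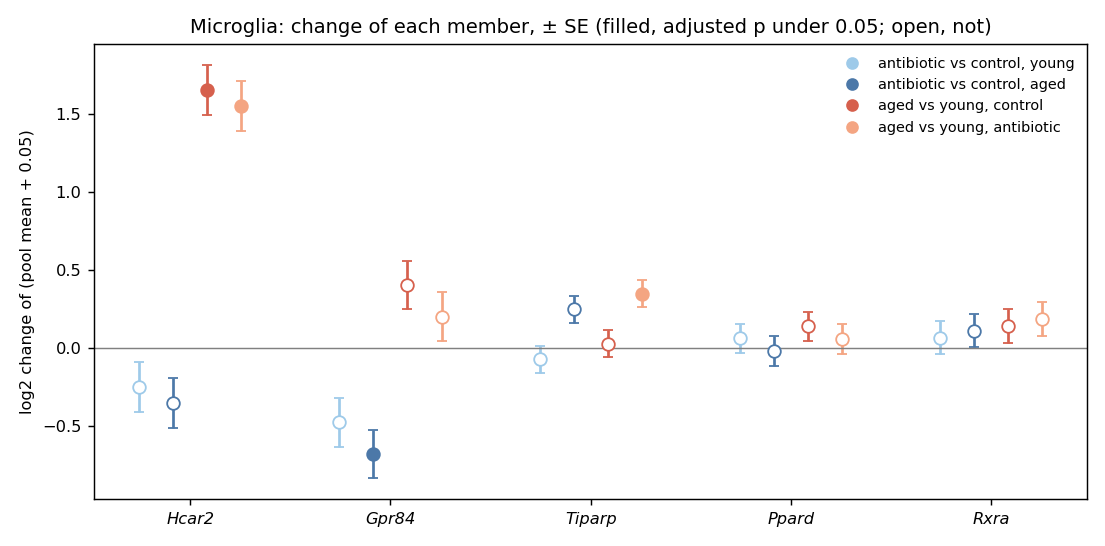
Log2 change (y axis, on the scale log2(pool mean + 0.05)) of the 5 members tested in microglia (x axis) in 4 comparisons, with standard errors. Filled points passed an adjusted p of 0.05. These are Hcar2 in both age comparisons (1.65 and 1.55), Gpr84 with antibiotics in aged mice (-0.68) and Tiparp with age in antibiotic mice (0.35).

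Hcar2 and Gpr84 tended to occur in the same microglia. Among cells of 4000 to 10000 raw UMIs, the 437 with Hcar2 above 0 had a mean Gpr84 of 2.98 against 1.65 in the 6343 without, the mean being higher in 12 of 12 pools. Their median depths were 7638 and 7001 raw UMIs. Each pool held 8 to 84 such Hcar2-positive cells. In them Tiparp was higher in 6, Ppard in 4 and Rxra in 5 of 12 pools. Split by Gpr84 instead, Tiparp was higher in the positive cells in 10, Ppard in 8 and Rxra in 4 of 12 pools. Median depths in that split were 7377.25 and 6681.75 raw UMIs, and the part of depth in these values was not tested. Aged control 2 had the highest pool mean of both Hcar2 (0.418) and Gpr84 (3.07).

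In the 7 other types with enough pools (at least 2 pools of 10 cells in each group), 39 pairs of a member and a type could be tested. None of 156 limma tests of an antibiotic effect or of its difference between ages was called, the lowest adjusted p being 0.16, and 10 had an unadjusted p under 0.05. Over all genes, 0.0221% of the same tests in these types were called, so the absence of a call among the members matches the background. That lowest value was for Ahr in CD8+ T cells of young mice. Its pool means were 0.097 and 0.235 in control and 0.35, 0.467 and 0.278 in antibiotic, with young control 2 left out because it had 5 cells, and the log2 change was 0.99 (SE 0.34).

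Gpr84 in BAM had the same sign as in microglia. Its pool means were 0.676, 0.400 and 0.242 in aged control and 0.061, 0.136 and 0.200 in aged antibiotic, which did not overlap, with a log2 change of -1.40 (SE 0.47, limma adjusted p = 0.43). The 6 microglial markers also differed in BAM without overlap, with a summed level of 21.65 to 34.8 in aged control and 11.2 to 18.4 in aged antibiotic pools, and 6 of 6 were lower and none was at 0. The 6 markers of BAM summed to 20.8 to 25.1 and 22.2 to 23.9. The part of microglial RNA in the BAM value was not tested. Pparg in Ly6CLow cells was 0.293, 0.146 and 0.340 in young control and 0.086, 0.125 and 0.093 in aged control (log2 change -0.98, SE 0.36, limma adjusted p = 0.19). These values did not pass. In Ly6CHigh cells the median depth was 14036 raw UMIs in young control and 790 in aged antibiotic mice. Contrasts that use either group were still fitted in Ly6CHigh cells and count among the tests above, so their results carry this limit.

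The single call outside microglia was Pparg (chr6:115360879-115490404) in ILCs, which was higher in aged than in young antibiotic mice, and Ffar2 had a similar pattern. PPAR-gamma is known to support lipid use in group 2 innate lymphoid cells. Pparg was 0.313 and 0.320 in aged antibiotic pools, with aged antibiotic 2 left out because it had 5 ILCs, and 0 in all 3 young antibiotic pools. In controls the aged pools had 0.091, 0.103 and 0.194 and the young pools 0.063, 0.040 and 0. All aged pools lay above all young pools. The limma adjusted p was 0.012 in antibiotic mice and 0.58 in controls (log2 change 1.13, SE 0.54). A value above 0 was found in 0 of 66 young antibiotic ILCs, which allows a share of up to 4.55% by counting error alone, and in 12 of 41 aged antibiotic ILCs (29.3%). Pparg passed the filter on low means only through the aged pools, where it is high, since the young means were 0.034 in control and 0 in antibiotic mice, so the call is a description and supports nothing by itself. Of the 5 members tested in ILCs, 1 was called beside 1.44% of all genes in antibiotic mice, and 0 beside 0.912% in controls, where 3 had an unadjusted p under 0.05. The call was lost without aged antibiotic 1 (adjusted p = 0.12) or aged antibiotic 3 (adjusted p = 0.073).

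Ffar2 in ILCs was 0.091, 0.230 and 0.355 in aged control against 0, 0.040 and 0 in young control. In antibiotic mice it was 0.250 and 0.200 against 0, 0 and 0.033. The ages did not overlap, but the limma adjusted p was 0.099 in controls (log2 change 2.05, SE 0.57) and 0.093 in antibiotic mice (log2 change 2.21, SE 0.63). Ffar2 too passed the filter only through the aged pools, with young means of 0.0133 and 0.0111. Among cells of 4000 to 10000 raw UMIs the value in controls passed (limma adjusted p = 0.044). Over all 8 alternative settings that adjusted p ran from 0.044 to 0.26. Like the Pparg call, the passing value is a description and supports nothing by itself.

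The make-up of the ILC type differed with age beside these values. Gata3, the lineage factor of group 2 innate lymphoid cells, ran from 0.389 to 1.47 in young pools and from 1.71 to 3.16 in aged pools. Ncr1, a receptor of natural killer and group 1 cells, ran from 2.89 to 4.31 in young and from 0.954 to 2.28 in aged pools of at least 10 cells. Of the 5 innate lymphoid and natural killer markers, 3 were higher and 2 lower in aged than in young ILCs, in controls and in antibiotic mice alike. Their summed level was 10.3 to 12.3 in young control, 9.33 to 9.83 in young antibiotic, 7.82 to 13.6 in aged control and 13.8 to 14.2 in aged antibiotic pools, and none was at 0. All 5 T-cell markers were lower in aged than in young antibiotic ILCs, with a summed level of 2.81 to 4.80 against 7.06 to 8.22 and Cd3e at 0 in the aged pools. In controls 4 of 5 were higher with age, and the summed levels overlapped (3.22 to 11.8 in young and 2.91 to 19.1 in aged pools).

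Cells with Gata3 above 0 and Ncr1 at 0 made up 16.1% of young and 46.3% of aged ILCs, a split made after the values were seen. They held 27 of the 29 ILCs with Pparg and 31 of the 32 with Ffar2. None of the 117 cells with Ncr1 above 0 and Gata3 at 0 had Pparg or Ffar2, at a median depth of 5869 raw UMIs against 6753.5 in the former. Tiparp was above 0 in 45.3% of the former cells and 9.40% of the latter, and Ahr in 9.43% and 30.8%. Within the former cells, Pparg was above 0 in 2 of 25 young and 25 of 81 aged cells, and Ffar2 in 2 of 25 and 29 of 81. Their median depth was 5933 raw UMIs in young and 7061 in aged cells. These counts join all pools of an age, and aged control 2 alone held 87 of the 175 aged ILCs. Cells are not replicates, so no test was made, and the part of the changed make-up and of T-cell RNA in the age result was not tested.

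**Figure D5:**
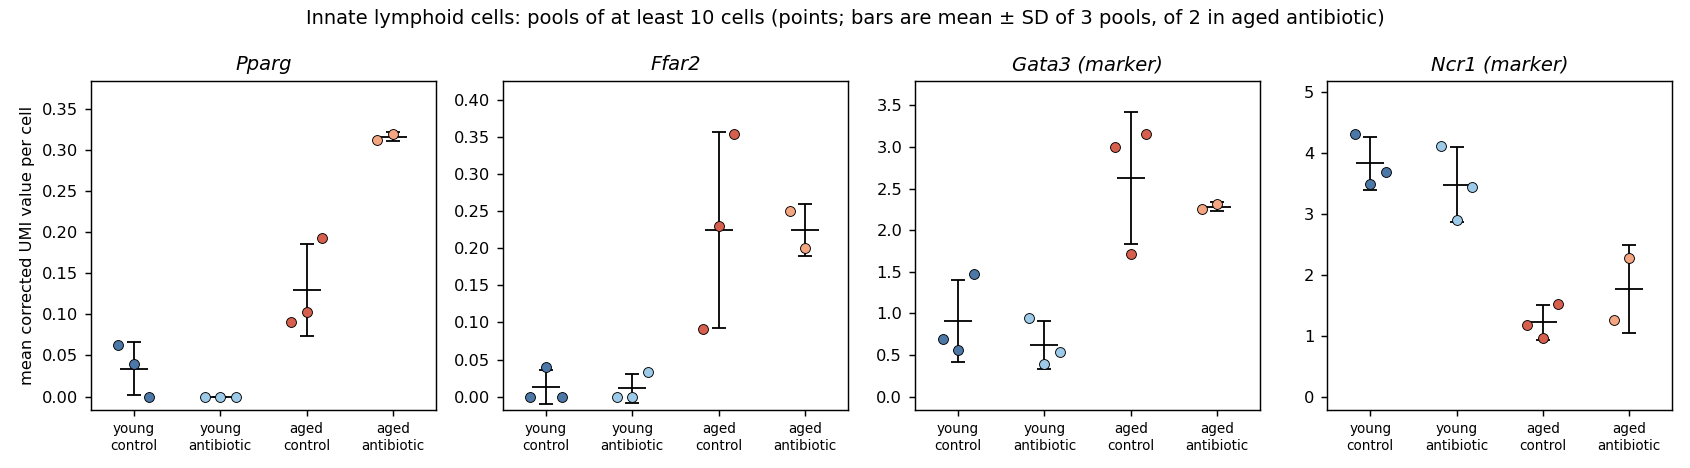
Mean corrected UMI value per cell in innate lymphoid cells (y axis, a separate scale in each panel) of Pparg, Ffar2 and the markers Gata3 and Ncr1, by group (x axis). Points are pools of at least 10 cells and bars are mean ± SD of 3 pools, or of 2 in the aged antibiotic group. Pparg, Ffar2 and Gata3 are higher and Ncr1 is lower in the aged pools.

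The other genes of these pathways were examined in microglia. Of 97 genes in 7 lists (surface receptors, the AHR pathway, tryptophan and kynurenine enzymes, lipid-sensing nuclear receptors, PPAR targets, transport and use of ketone bodies and short-chain fatty acids, and Gi coupling), 91 were in the table and 45 passed the filter, 40 of them not members. With antibiotics, 3 of 45 were called in aged mice (6.67%, beside 3.23% of all genes), 4 of 45 in the average over ages (8.89%, beside 5.4%) and 0 in young mice (beside 0.137%). With age, 1 of 45 was called in controls (2.22%, beside 2.66%) and 2 of 45 in antibiotic mice (4.44%, beside 6.15%), and those were Hcar2 and, in antibiotic mice only, Tiparp. Of the 40 that are not among the 9 genes, 2 were called in aged mice and 3 in the average, so these shares lie near the background and are not a result about the lists.

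Ucp2, a mitochondrial carrier and PPAR target, rose with antibiotics in aged mice. Its pool means were 4.80, 4.17 and 4.42 in aged control and 5.67, 6.08 and 5.84 in aged antibiotic (log2 change 0.39, SE 0.08, limma adjusted p = 0.0075), with no overlap. In young mice the change was 0.08 (SE 0.08, limma adjusted p = 0.76). The difference between the ages was not called (0.31, SE 0.11, limma adjusted p = 0.61). Oxct1, which commits ketone bodies to oxidation, fell in aged mice from 1.17, 1.15 and 1.12 to 0.967, 0.847 and 0.973 (log2 change -0.29, SE 0.07, limma adjusted p = 0.029), with no overlap. In young mice it changed by -0.08 (SE 0.07, limma adjusted p = 0.77), and the difference between the ages was not called (-0.22, SE 0.10, limma adjusted p = 0.73). Ucp2 and Oxct1 were also called in the average over ages (limma adjusted p = 0.014 and 0.037). Slc27a4, a fatty acid transport protein chosen after its values were seen because it completes the calls, passed only in the average over ages (log2 change -0.35, SE 0.08, limma adjusted p = 0.019).

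By list, the 14 tested PPAR targets included 1 call in aged mice with a median log2 change of 0.02, beside -0.01 over all genes. The 8 tested genes of ketone body and short-chain fatty acid transport and use also included 1, with a median of -0.12. Among the 4 tested surface receptors 1 was called with antibiotics in aged mice, with a median of -0.32. That call was Gpr84 itself, already given above, and 0 of the 2 receptors that are not members were called. The 6 tested AHR pathway genes and 5 tested Gi coupling genes gave none. Arnt, the DNA-binding partner of AHR, changed by 0.11 (SE 0.09, limma adjusted p = 0.54) in aged mice. None of the 7 tryptophan and kynurenine enzymes in the table passed the filter in microglia.

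Genes with the most similar levels over the 9 types were sought among 9162 candidates, as a description over types that share libraries. Hcar2 was most like Wipi1 (r = 0.99), Agap1 (r = 0.98) and Hk3 (r = 0.97), and Gpr84 most like Bco2 (r = 0.98), Lrrc3 (r = 0.97) and Tbpl1 (r = 0.97). Ffar2 was most like Ptgir, Lmo4 and Klf5 (r = 0.95, 0.95 and 0.93), and Ahr most like Ccr2, Use1 and Ahnak (r = 0.98, 0.95 and 0.95). Tiparp resembled Dram1, Irak4 and Plin2 (r = 0.94, 0.94 and 0.94). Ppard resembled Depdc7, Il18 and Il6ra (r = 0.98, 0.98 and 0.97), Pparg resembled Gm42418, Zbtb46 and Itgax (r = 0.93, 0.91 and 0.91), and Rxra resembled H1f0, Stx12 and Inppl1 (r = 0.98, 0.97 and 0.97). Cyp1b1 was too low in every type to be compared.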

How the data were processed

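Droplet 3' RNA libraries of brain immune cells were processed with Cell Ranger 3.0.2 against mm10 and with Seurat 3.0.1, per the submitters' processing notes. The deposited RNA values are a score, UMIs corrected by SCTransform going by the name of the deposited table. The sum of these whole numbers equalled the corrected total of the deposited metadata in 13052 of 13052 cells and the raw total in 62, so no count test was run on them. Raw UMI totals per cell are counts from the deposited metadata, which also gave the authors' cell types, hashtags and clusters. Every cell is marked as a hashtag singlet in the deposited metadata, the cell filter is not given in the sources used here, and no further doublet caller was run. Of the metadata, 34 columns of per-cell values were left unused, as was the antibody table.

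Values were averaged per type and pool (at least 10 cells), taken as log2 after adding 0.05, and genes with a mean of at least 0.05 were tested with limma 3.58.1 (R 4.3.3, trended prior variance) over all genes of the type. The 6 contrasts were the antibiotic effect at each age, the average and the difference of these effects, and the age effect in each arm. P-values were Benjamini-Hochberg adjusted within a contrast at 0.05. The 9 members are always named. Other pathway genes are named when they passed in microglia without overlap of pools, up to 4 each way per contrast, and Slc27a4 and Arnt were named outside that rule after their values were seen. For each member the 3 most similar genes are named by Pearson's r. Steps were tested on simulated data. Intervals and limits on a count of 0 use a confidence level of 95% or 3 cells and cover counting error only. Alternatives were other pseudocounts (0.5 and 0.01), no filter or a mean of 0.1, means of log values, scaling to the pool's summed value, depth limits, a constant prior variance, pools of at least 20 cells, leaving out each pool, and a block by hashtag number. The members and gene lists were chosen with earlier results of these data known. RefSeq had no upstream window for Hcar2 and Ahr in the table used here.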

Additional observations from a re-analysis of the deposited data

How the results depend on the processing

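Both Hcar2 age calls in microglia held under every alternative run, including each of the 12 pools left out (1.44 to 1.80 in controls and 1.42 to 1.65 in antibiotic mice). Without the filter on low means, the number of the 5 tested genes called fell to 0 with antibiotics in aged mice and in the average over ages. It fell to 1 with age in antibiotic mice. The pathway genes called then numbered 0 in aged mice, 1 in the average and 2 with age in controls. More genes are tested without the filter, and the part of that in these counts was not tested. A constant prior variance left 0 of the 5 with antibiotics in aged mice (Gpr84 adjusted p = 0.053). Means of log values per cell gave 2 of the 5 and 2 pathway genes with age in controls, adding Gpr84 (0.20, adjusted p = 0.037). Cells of at least 2000 raw UMIs gave 4 pathway genes with age in antibiotic mice. Cells of 4000 to 10000 raw UMIs gave 2 of the 5 and 6 pathway genes with antibiotics in aged mice, adding Tiparp (0.34, adjusted p = 0.047), and 2 and 4 pathway genes with age in controls and in antibiotic mice. In other types they gave 1 call with age in controls and 2 in antibiotic mice. Requiring 20 cells per pool gave 0 in antibiotic mice, because ILCs could no longer be tested.

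Leaving out 1 pool gave 0 to 1 of the 5 with antibiotics in aged mice and 1 to 2 with age in antibiotic mice. Pathway calls ranged over 0 to 4 in aged mice (0 without aged control 2), 2 to 6 in the average (2 without young control 2, young control 3 or young antibiotic 1), 1 to 2 with age in controls and 1 to 3 with age in antibiotic mice, and calls in other types over 0 to 2. Uncalled values near 0 changed sign. With antibiotics, Tiparp in young mice ran from -0.13 to 0.0073, Ppard in aged mice from -0.093 to 0.053 and Ppard over both ages from -0.016 to 0.057. Between the antibiotic effects at both ages, Rxra ran from -0.060 to 0.15 and Hcar2 from -0.25 to 0.11. With age, Tiparp in controls ran from -0.018 to 0.090 and Ppard in antibiotic mice from -0.016 to 0.13. By depth, Ppard was 0.0017 with antibiotics in aged mice and Tiparp -0.077 with age in controls for cells of 4000 to 10000 raw UMIs, and Ppard -0.014 over both ages for cells of at least 2000. Except where stated, the cause was not tested.

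Same-numbered hashtags did not pair the pools (correlations of deviations -0.09 to 0.11). With the hashtag number as a replicate block, the number of the 5 called was 1 with age in controls, 2 with age in antibiotic mice and 0 for the difference between the antibiotic effects, as without it, and no call changed. Ffar2, Ahr, Cyp1b1 and Pparg had means under the filter in microglia, so their changes there were not tested.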
